A study of Mus musculus with 15 samples.

Results

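The tibialis anterior, a fast muscle of the front of the lower hind leg, was compared between melanoma-bearing and control mice that received no drug. The comparison was chosen by treatment label: 4 melanoma libraries against 4 control libraries, 8 of the 15 libraries of the series. The mice were female and of the strain C57BL/6J, with an age label of 7 weeks. Melanoma mice carried an implanted melanoma xenograft that induces cachexia, controls had a mock injection, and muscle was taken 49 days later according to the design text. A protocol label also speaks of 3 weeks after injection of LLC cells, a different tumour, and the design text was followed. The other 7 libraries came from mice given lisinopril, an inhibitor of angiotensin-converting enzyme: 3 tumour-free and 4 with melanoma, used here for the spread and for 1 comparison of effects. The labels name no melanoma line, give no tumour size or muscle weight, and do not say whether the mice were housed or processed together. Each library is labelled a biological replicate. Genes with at least 1 TPM (length-adjusted transcript levels that add up to the same total in every library) in at least 3 of the 8 libraries were described, 11698 of the 47643 symbols in the table and of the 21070 above 0 in any of the 8.

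Cachexia is the loss of skeletal muscle and fat that accompanies many cancers. Tumour and host cells release cytokines such as interleukin-6, which signal through the receptor chain gp130 and the transcription factor STAT3, and raised glucocorticoids act on muscle through their own receptor. In wasting muscle, ubiquitin ligases, proteasomes and autophagy break down the contractile proteins, and muscle can itself make acute phase proteins of the kind better known from liver. Oxidative metabolism often declines alongside.

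Promoter sequences are shown for some of the called genes, all of which rose. They are the 250 bases before the annotated start, from RefSeq on GRCm38.p6, written 5′ to 3′ on the gene's strand. Serpina3n and C3 had the largest rises among called genes, and Stat3, also called, encodes the transcription factor at the end of the interleukin-6 pathway. C7, Cxcl14, Fas and Csf2rb2 were chosen because they rose and hold the STAT letters TTCNNNGAA, which are in capitals. Scgb3a1 and Steap4 rose and hold these letters too, and are not shown. The windows lie at chr12:104406458-104406707 (plus strand, Serpina3n), chr17:57228137-57228386 (minus, C3), chr11:100939541-100939790 (minus, Stat3), chr15:5063774-5064023 (minus, C7), chr13:56296552-56296801 (minus, Cxcl14), chr19:34290409-34290658 (plus, Fas) and chr15:78305722-78305971 (minus, Csf2rb2), and none overlaps an annotated exon.
Serpina3n: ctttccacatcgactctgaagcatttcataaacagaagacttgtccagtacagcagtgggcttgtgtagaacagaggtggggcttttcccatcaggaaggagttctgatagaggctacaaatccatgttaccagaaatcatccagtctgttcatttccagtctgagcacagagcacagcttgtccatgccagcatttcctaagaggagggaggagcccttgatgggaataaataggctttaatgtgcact
C3: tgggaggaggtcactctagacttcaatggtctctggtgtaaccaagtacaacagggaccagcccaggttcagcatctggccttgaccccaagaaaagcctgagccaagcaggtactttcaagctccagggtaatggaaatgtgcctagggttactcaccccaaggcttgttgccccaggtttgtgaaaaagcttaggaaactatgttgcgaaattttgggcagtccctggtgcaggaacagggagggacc
Stat3: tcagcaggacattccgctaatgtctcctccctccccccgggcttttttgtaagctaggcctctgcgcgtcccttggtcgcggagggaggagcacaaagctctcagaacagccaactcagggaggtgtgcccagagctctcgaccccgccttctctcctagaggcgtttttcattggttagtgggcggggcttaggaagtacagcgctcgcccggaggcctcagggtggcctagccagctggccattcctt
C7: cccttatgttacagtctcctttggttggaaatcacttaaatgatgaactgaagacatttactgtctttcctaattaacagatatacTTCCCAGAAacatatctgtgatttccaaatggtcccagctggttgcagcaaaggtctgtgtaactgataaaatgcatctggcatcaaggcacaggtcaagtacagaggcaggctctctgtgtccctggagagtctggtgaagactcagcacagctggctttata
Cxcl14: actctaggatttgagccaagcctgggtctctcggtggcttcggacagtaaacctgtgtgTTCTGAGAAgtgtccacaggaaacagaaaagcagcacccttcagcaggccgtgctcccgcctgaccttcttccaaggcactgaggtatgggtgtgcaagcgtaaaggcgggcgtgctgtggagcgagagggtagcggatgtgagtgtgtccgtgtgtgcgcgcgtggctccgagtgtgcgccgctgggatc
Fas: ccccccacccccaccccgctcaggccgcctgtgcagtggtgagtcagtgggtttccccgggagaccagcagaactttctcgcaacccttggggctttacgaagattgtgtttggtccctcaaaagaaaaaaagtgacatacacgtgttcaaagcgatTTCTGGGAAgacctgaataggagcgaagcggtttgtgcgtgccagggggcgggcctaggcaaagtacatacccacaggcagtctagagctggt
Csf2rb2: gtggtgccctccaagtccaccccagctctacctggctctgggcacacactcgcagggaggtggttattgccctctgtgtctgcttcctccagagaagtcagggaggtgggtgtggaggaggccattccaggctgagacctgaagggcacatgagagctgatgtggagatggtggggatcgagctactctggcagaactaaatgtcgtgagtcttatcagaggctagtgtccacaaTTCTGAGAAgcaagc
The letters were searched on both strands, where this motif reads the same. They stood in 6 of 38 promoters of genes that rose (15.8%), in 0 of 15 promoters of genes that fell and in 6.05% of the 8861 promoters of all genes described. Other motifs searched were TCAAGGTCA (estrogen-related receptor element, in 0.271% of all promoters, 0 of 38 and 2 of 15), GTAAACA (forkhead, 2.04%, 1 of 38 and 0 of 15) and CACGTG (E-box, 8.72%, 4 of 38 and 2 of 15). The Fas window shown also holds the E-box letters, left in lower case because only the STAT letters are in capitals. The 2 falling genes with the estrogen-related receptor letters, Gm13306 and Msrb2, are not shown. Serpina3n, C3 and Stat3 hold none of the 4 motifs in this window, nor do Fabp3, Cyfip2 and Npr3, which fell and are not shown. These matches are a description of letters and were not tested as binding sites.

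The tissue and the libraries were checked first. The 17 fibre markers all passed the filter, with summed levels of 107670 to 162560 TPM in controls and 101140 to 198450 TPM in melanoma muscle, so they were abundant in all 8. Of 14 melanocyte markers, 3 passed the filter, the pigment enzymes Tyr, Tyrp1 and Dct were at or near 0 in all 8, and the list summed to 7.76 to 9.71 TPM in controls and 7.03 to 14.8 TPM in melanoma mice. Control 2 and melanoma 2 stood apart from their groups. Their mean correlation with the other libraries of the group was 0.937 and 0.936, against at least 0.964 for the other 6. Control 2 had 24093 TPM of erythroid markers, against at most 1699 TPM in the other 7 libraries, and the highest interferon, T cell and B cell marker sums, which the plot of marker sums shows. Melanoma 2 had the highest Trim63 (1974 TPM) and the lowest Casq1 (82.3 TPM) of all 8. The 13 mitochondrially encoded genes took 40.8% to 52.8% of TPM in controls and 33.1% to 46.9% in melanoma muscle, a difference of -4.94 percentage points that did not exceed the spread (exact permutation test, two-sided, 70 relabellings, p = 0.286). The median gene had a log2 fold change of 0.11, and lists are given relative to this shift. Without the mitochondrial genome the median was 0.0064, and after median-ratio rescaling -0.020.

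**Figure D1:**
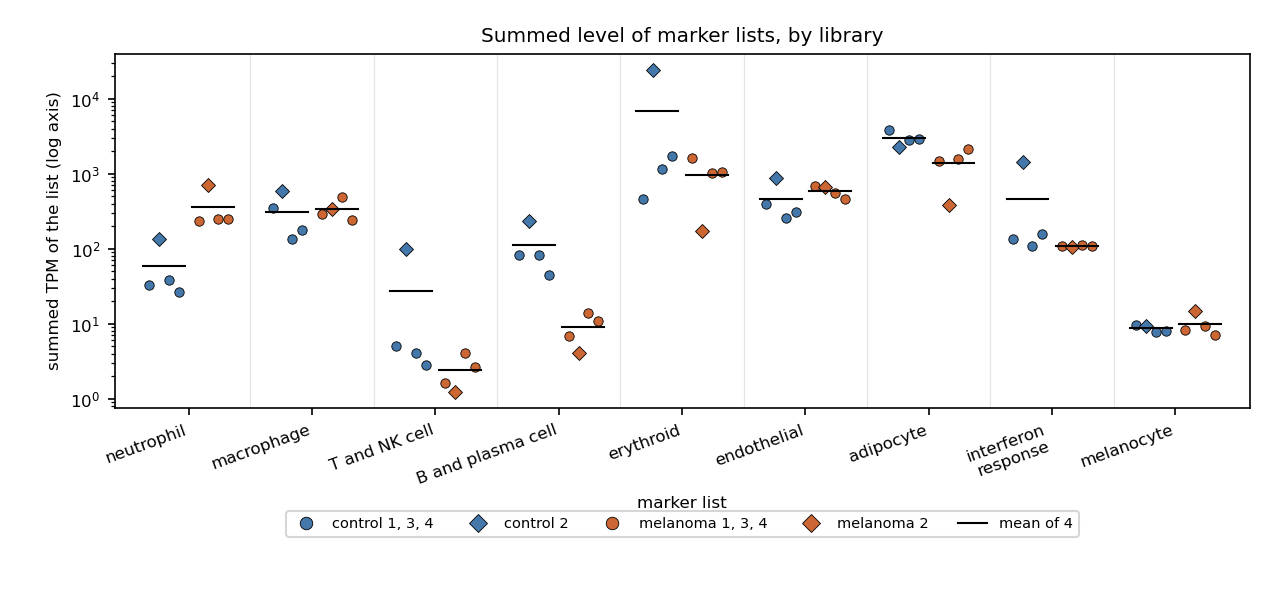
Summed TPM of 9 marker lists in each library (log axis), controls in blue and melanoma in orange, with diamonds for replicate 2 of each group and a bar at the mean of 4. Control 2 stands above every other library for the erythroid, interferon, T and NK cell, and B and plasma cell lists, while all 4 melanoma libraries lie above all 4 controls for neutrophil markers, a separation that is lost when Lcn2 is taken out of that sum.

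In melanoma muscle, 11 genes of the acute phase, complement and interleukin-6 lists rose, and Fabp3 and Oxct1, which serve fat and ketone use, fell. Expression was compared with limma on log2(TPM + 1), and a gene was called at a Benjamini-Hochberg adjusted p under 0.05 over all 11698 genes. Called genes numbered 76 (0.650%), of which 54 were higher (0.462%) and 22 lower (0.188%) in melanoma. For 74 of the 76, no melanoma library overlapped a control library, 52 higher and 22 lower, and over all genes such separation was seen for 627 higher (5.36%) and 333 lower (2.85%). The calls were made from these same values, so the separation of the called genes largely follows from their selection. C3, C4b, Cxcl14, Sned1, Atp9a and Fabp3 were called under all 20 alternative settings. The other calls were less firm: with the spread taken from only the 8 libraries, 7 genes were called, those 6 and Ighm. Leaving out control 2, singled out from these same values, raised the count to 590, 452 higher (3.86%) and 138 lower (1.18%), and all 76 were among them. Fewer of the 76 stayed called when any other library was left out. These were 22, 20 and 21 without controls 1, 3 and 4, and 29, 15, 31 and 49 without melanoma 1 to 4. Of the 76, 70 were also called without both control 2 and melanoma 2, where 258 genes passed. Genes higher made up 71.1% of the calls, but 55.1% with TPM recomputed without the mitochondrial genome and 59.4% after median-ratio rescaling, so the balance between directions depends on the scaling. Fold changes are on the log2(TPM + 1) scale, with standard errors, and understate the change of genes at a few TPM.

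The 3 called genes with the largest rises were Serpina3n, C3 and C4b, of the acute phase and complement lists. Serpina3n, a secreted protease inhibitor of the acute phase (chr12:104406729-104414329, plus strand), stood at 3.61, 11, 1.66 and 3.28 TPM in controls 1 to 4 and at 154, 887, 64.9 and 46.6 TPM in melanoma 1 to 4. Every melanoma library lay above every control, with melanoma 2 the highest, and the log2 fold change was 4.85 ± 0.92 (adjusted p = 0.0313). C3, the central complement component on which all 3 activation routes converge (chr17:57203970-57228136, minus strand), had 9.46, 20.02, 5.48 and 12.3 TPM in controls and 115, 70.6, 113 and 70.9 TPM in melanoma. C3 thus did not overlap between groups, and rose by 2.95 ± 0.37 on the log2 scale (adjusted p = 0.0052). C4b, the complement component cleaved in the classical and lectin routes (chr17:34728380-34743882, minus strand), had 2.31, 4.97, 0.671 and 1.2 TPM in controls and 20.4, 23.6, 24.6 and 16.7 TPM in melanoma, also without overlap (log2 fold change 2.92 ± 0.38, adjusted p = 0.00557). Mouse C4b has a near-identical copy, C4a, and Serpina3n belongs to a cluster of similar genes, so the division of reads within each family is uncertain.

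Of 23 complement genes that passed the filter (29 in the table), 5 rose and 0 fell, 9 lay wholly above the controls, and the median log2 fold change was 0.67 above that of all genes. Besides C3 and C4b, these included C7, a part of the membrane attack complex (0.094 to 0.807 TPM in controls, 1.63 to 4.52 TPM in melanoma), and Fcna, a lectin that starts the lectin route (0.185 to 1.77 against 3.19 to 7.53 TPM). Their adjusted p-values were 0.0165 and 0.0437. C7 stayed under 1 TPM in every control, so it passed the filter through melanoma libraries alone. Without control 2, 9 complement genes were called, with C1ra, Cfb and Serping1 among those added. Over all genes kept, 0.462% were called higher, 5.36% lay wholly above the controls, and 3.86% were called higher without control 2. Serping1, which encodes the C1 inhibitor, had 62.8, 73.0, 22 and 31.6 TPM in controls and 104, 89.1, 141 and 103 TPM in melanoma, higher in every melanoma library, and an adjusted p of 0.0657 with control 2 and 0.0129 without it. In the fit of only the 8 libraries, C3 and C4b alone of this list were called.

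Of 15 acute phase genes that passed the filter, 3 rose, 0 fell, 9 lay wholly above the controls and 14 had a log2 fold change above 0. The list's median lay 1.43 above that of all genes. The shares of all genes kept were 0.462% called higher and 5.36% wholly above the controls. Lbp, which binds bacterial lipopolysaccharide in serum, had 6.44, 6.50, 2.13 and 3.71 TPM in controls and 18.1, 27.4, 30.7 and 14.4 TPM in melanoma, with no overlap (log2 fold change 2.08 ± 0.32, adjusted p = 0.0134). Steap4, a membrane metalloreductase, had 13 to 24.3 TPM in controls and 31.4 to 47.3 TPM in melanoma (1.03 ± 0.20, adjusted p = 0.036). Lcn2, a siderophore-binding protein, had 1.47, 5.95, 0.901 and 2.13 TPM in controls and 121, 336, 23.3 and 16.1 TPM in melanoma. These groups did not overlap, but the melanoma libraries differed widely among themselves and the adjusted p was 0.06 (0.0263 without control 2). Hp, the haemoglobin scavenger haptoglobin, ranged from 1.65 to 13.9 TPM in controls and from 8.96 to 20.3 TPM in melanoma, and Lrg1, a secreted leucine-rich glycoprotein, from 17.0 to 30.3 and from 33.7 to 109 TPM (adjusted p = 0.0912 and 0.0687). Both were called higher without control 2, as was Cp, the copper ferroxidase ceruloplasmin (1.18 to 3.15 against 3.52 to 5.35 TPM, adjusted p = 0.051 with control 2).

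Stat3 and Osmr, a receptor of the interleukin-6 family, rose, as did the interleukin-1 receptor Il1r1. Stat3, the transcription factor at the end of the pathway (chr11:100885098-100939540, minus strand), had 17.5, 23.1, 9.86 and 14.3 TPM in controls and 48.4, 41.6, 44.5 and 30.7 TPM in melanoma. The lowest melanoma library was above the highest control, and the log2 fold change was 1.34 ± 0.23 (adjusted p = 0.0206). Osmr, the receptor chain for oncostatin M that pairs with gp130, had 1.83, 4.13, 0.982 and 1.40 TPM in controls and 8.89, 9.64, 7.92 and 5.79 TPM in melanoma, again without overlap (1.63 ± 0.28, adjusted p = 0.0206). Il1r1, the signalling receptor of interleukin-1, had 1.62 to 3.36 TPM in controls and 4.16 to 6.98 TPM in melanoma (0.97 ± 0.19, adjusted p = 0.0361). These were the 3 called of 33 genes in the list, and none fell. Of the list, 7 lay wholly above the controls, and the median was 0.65 above that of all genes. Of all genes kept, 0.462% were called higher and 5.36% lay wholly above the controls. The ligand gene Il6 itself was low and variable, at 3.86, 9.02, 2.11 and 1.61 TPM in controls and 3.31, 9.68, 25.5 and 14.4 TPM in melanoma, overlapping between groups (adjusted p = 0.256).

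Socs3, the feedback inhibitor induced by STAT3, had 31.9, 69.2, 14.0 and 18.5 TPM in controls and 86.2, 103, 167 and 112 TPM in melanoma. The groups did not overlap, but the adjusted p was 0.106, and 0.0262 without control 2. Il6st, which encodes gp130, had 23.7 to 39.9 TPM in controls and 45.7 to 67.8 TPM in melanoma (adjusted p = 0.108 and, without control 2, 0.0431). Il6ra, the ligand-binding receptor of interleukin-6, had 1.96, 9.47, 0.766 and 1.29 TPM in controls and 10.04, 31.8, 5.95 and 9.12 TPM in melanoma, where control 2 lay within the melanoma range. Pim1, a kinase induced by STAT3, overlapped for the same reason, with 74.0 TPM in control 2 and 19.9 to 47.9 TPM in melanoma. Without control 2, 9 of the 33 were called higher and 0 lower, beside 3.86% and 1.18% of all genes kept. Of 28 genes around NF-kB, Irak3, which dampens receptor signalling (1.06 to 4.14 against 4.02 to 8.59 TPM, adjusted p = 0.037), and Il1r1 rose, and 0 fell.

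**Figure D2:**
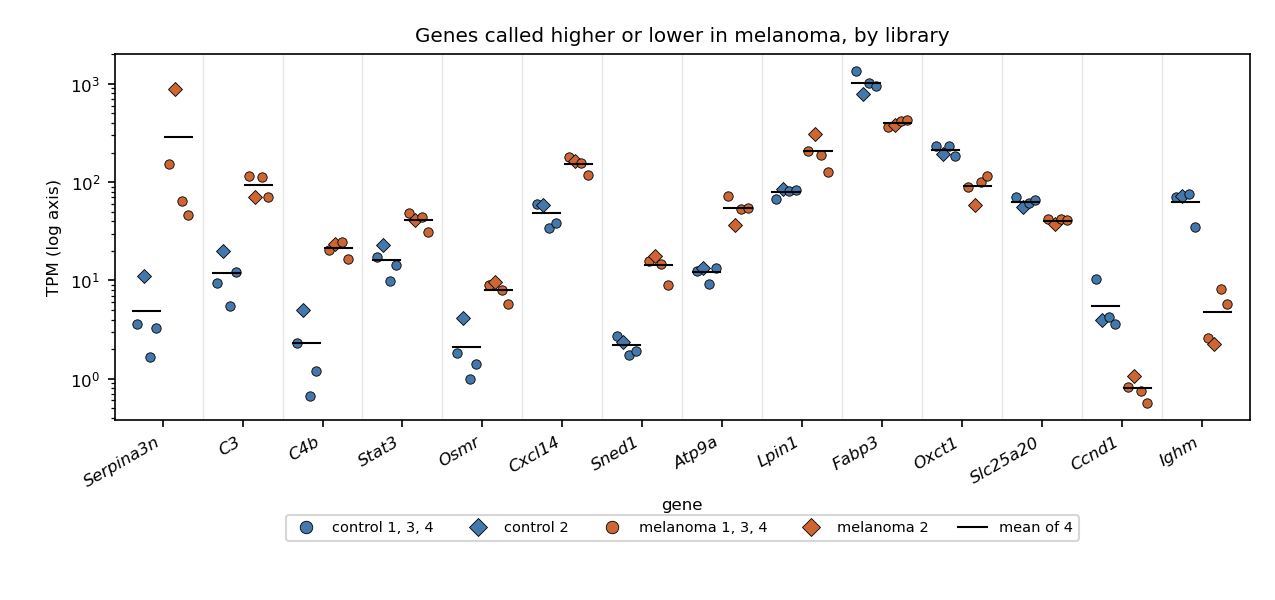
TPM of 14 called genes in each library (log axis), controls in blue and melanoma in orange, with diamonds for replicate 2 and a bar at the mean of 4. For each of these genes, the 4 melanoma libraries lie wholly above or wholly below the 4 controls, with Serpina3n spanning 46.6 to 887 TPM within the melanoma group.

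Of 42 matrix genes, Sned1 and Mmp3 rose, 0 fell, and 22 had a log2 fold change above 0, with a median 0.054 below that of all genes. The secreted proteins Cxcl14, Prg4 and Apod, from the list of fibroadipogenic markers, rose as well. Sned1, an extracellular matrix glycoprotein (chr1:93235841-93301065, plus strand), had 2.71, 2.34, 1.74 and 1.92 TPM in controls and 15.8, 17.6, 14.8 and 9.08 TPM in melanoma. It had the smallest adjusted p of all genes (0.00132, log2 fold change 2.24 ± 0.24), and no library overlapped. Cxcl14, a chemokine listed here with fibroadipogenic progenitors (chr13:56288643-56296551, minus strand), had 60.4, 59.0, 34.4 and 38.6 TPM in controls and 181, 163, 155 and 118 TPM in melanoma (1.69 ± 0.27, adjusted p = 0.0134). Prg4, the lubricating proteoglycan lubricin, had 4.26, 4.95, 1.70 and 1.85 TPM in controls and 17.4, 39.4, 16.2 and 14.6 TPM in melanoma (2.42 ± 0.43, adjusted p = 0.0213). Apod, a lipid-carrying lipocalin, had 39.1, 106, 14.1 and 18.9 TPM in controls and 152, 232, 140 and 117 TPM in melanoma, with control 2 close under the lowest melanoma library (2.21 ± 0.47, adjusted p = 0.0463). Mmp3, the protease stromelysin-1, had 0.566 to 3.19 TPM in controls and 5.49 to 10.6 TPM in melanoma (adjusted p = 0.0437).

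As a list, the markers of fibroadipogenic progenitors were mixed. Of 23, 3 were called higher (Cxcl14, Apod and Prg4), 0 lower, and 11 had a log2 fold change above 0, with a median 0.18 below that of all genes. Their summed TPM overlapped, 735 to 1838 TPM in controls and 1517 to 2104 TPM in melanoma. Within bulk tissue, a change in the number of such cells and a change in the RNA of each cannot be told apart. Collagens leaned the other way: 22 of 29 had a log2 fold change below 0, the median was 0.53 below that of all genes, and 0 were called in either direction. Col3a1, the fibrillar collagen of soft tissue, had 328, 97.8, 72.6 and 104 TPM in controls and 38.7, 5.60, 142 and 42.3 TPM in melanoma, and Col1a1 had 194, 47.5, 35.5 and 43.7 against 41.8, 4.37, 74.6 and 22.5 TPM. Control 1 was the highest and melanoma 2 the lowest for both, the groups overlapped, and the adjusted p-values were 0.291 and 0.368. Col15a1, a collagen of basement membranes, was lower in every melanoma library (12.6 to 34.7 TPM in controls, 6.05 to 10.6 TPM in melanoma, adjusted p = 0.069). Against the direction of the collagens, Lox, the enzyme that cross-links them, had 3.07 to 9.69 TPM in controls and 10.2 to 21.7 TPM in melanoma (adjusted p = 0.122), and Dcn, the proteoglycan decorin, 142 to 309 and 312 to 445 TPM (0.121).

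Genes named after their values were seen added to the secreted and membrane proteins that rose. Rarres2, which encodes the chemoattractant chemerin, had 8.54, 13.5, 4.34 and 6.29 TPM in controls and 26.5, 31.2, 23.8 and 22.5 TPM in melanoma (1.65 ± 0.27, adjusted p = 0.0158). Crispld2, a secreted protein that binds lipopolysaccharide, had 4.04 to 6.37 TPM in controls and 11.7 to 14.8 TPM in melanoma, a tight separation (1.12 ± 0.16, adjusted p = 0.00894). Il33, an alarmin cytokine of stromal nuclei, had 1.54 to 5.49 against 7.09 to 12 TPM (1.39 ± 0.26, adjusted p = 0.029). Fas, the death receptor, had 2.99 to 6.26 against 8.86 to 14.3 TPM (1.27 ± 0.22, adjusted p = 0.0206), and Plau, the plasminogen activator urokinase, 15.7 to 32.4 against 35.1 to 61.0 TPM (1.12 ± 0.24, adjusted p = 0.0437). The paired membrane genes Tmem176a and Tmem176b both rose, with 1.97 to 5.58 against 11 to 18.1 TPM and 8.42 to 20.9 against 38.4 to 61.1 TPM (1.81 ± 0.27 and 1.78 ± 0.29, adjusted p = 0.0114 and 0.0158).

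Neutrophil markers had log2 fold changes above 0, the immunoglobulin gene Ighm fell, and interferon response transcripts stood highest in control 2. Of 21 neutrophil markers, 14 passed the filter and all 14 had a log2 fold change above 0, with a median 1.18 above that of all genes. With all libraries 0 were called, and without control 2, 11 were called higher and 0 lower. Over all genes kept, 7346 of 11698 had a log2 fold change above 0, and 3.86% were called higher without control 2. Their summed TPM were 32.7, 135, 38.0 and 26.7 in controls and 235, 716, 249 and 251 in melanoma. S100a8, a calcium-binding protein of granulocytes, had 7.37, 25.0, 9.28 and 5.32 TPM in controls and 40.9, 162, 45.5 and 66.1 TPM in melanoma (adjusted p = 0.0603, and 0.0164 without control 2). S100a9, its partner, had 12.7 to 51.7 TPM in controls and 45.4 to 127 TPM in melanoma and overlapped through control 2. The chemokine receptor Cxcr2 had 0.537 to 2.59 TPM in controls and 2.55 to 6.21 TPM in melanoma, and the decoy receptor Il1r2 0.496 to 1.54 and 2.22 to 9.95 TPM. The defining surface marker Ly6g stayed under 1 TPM in all 8 libraries, with a highest value of 0.714 TPM in control 2. Camp, Ngp, Mpo, Elane, Ltf and Cd177 did not pass the filter either, and each was highest in control 2 (0.229 to 4.20 TPM). Mpo and Elane were at or near 0 in melanoma, while Ly6g and Cd177 lay above controls 1, 3 and 4 in each melanoma library. Lcn2 is also a member of this list. Without it the sums were 31.3, 129, 37.1 and 24.6 TPM in controls and 114, 380, 226 and 235 TPM in melanoma, and melanoma 1 lay below control 2, so the groups overlapped.

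Macrophage markers were mixed. Cd163, a haemoglobin-haptoglobin receptor of resident macrophages, had 1.04, 2.47, 0.386 and 1.19 TPM in controls and 8.35, 9.14, 8.56 and 4.60 TPM in melanoma, with no overlap (1.97 ± 0.36, adjusted p = 0.0246). Lyve1, shared with lymphatic endothelium, had 0.949 to 2.58 against 5.20 to 7.92 TPM (adjusted p = 0.06), and F13a1, a clotting factor subunit made by macrophages, 1.19 to 8.05 against 9.35 to 17.7 TPM (adjusted p = 0.069). C1qa, a complement component made by most tissue macrophages, overlapped, at 46.2, 56.5, 12.2 and 17.8 TPM in controls and 55.9, 44.7, 66.4 and 32.2 TPM in melanoma (adjusted p = 0.347). Of 21 macrophage markers, 1 was called higher and 0 lower, 5 and 0 without control 2, and the summed TPM overlapped (136 to 583 in controls, 242 to 490 in melanoma). Of all genes kept, 0.462% were called higher with all libraries and 3.86% without control 2. Other genes of myeloid and interferon families that rose were Csf2rb2, a beta chain of cytokine receptors (1.18 to 5.06 against 5.24 to 13.3 TPM, adjusted p = 0.036), Ifi205 (1.34 to 7.25 against 7.56 to 23.2 TPM, adjusted p = 0.0437) and Ifitm1 (0.698 to 2.54 against 5.54 to 13.2 TPM, adjusted p = 0.00661). Csf2rb2 and Ifi205 have close relatives in the genome, so their share of reads is uncertain.

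Ighm, the constant region of the immunoglobulin M heavy chain (chr12:113418558-113422730, minus strand), had the largest fall among called genes. Its level was 70.5, 72.1, 74.9 and 35.3 TPM in controls and 2.60, 2.24, 8.24 and 5.82 TPM in melanoma, and every melanoma library was below every control (-3.57 ± 0.60, adjusted p = 0.0181). Igkc, the kappa light chain, was likewise lower in every melanoma library than in every control, but was not called. It had 80.1 TPM in control 2 and 3.32 to 4.08 TPM in the other controls, against 0.0892 to 2.06 TPM in melanoma (adjusted p = 0.245). The 20 B and plasma cell markers summed to 83.3, 235, 82.6 and 44.0 TPM in controls and 6.96, 4.13, 14.1 and 11.1 TPM in melanoma, apart with or without control 2. Ighm alone supplied 70.5, 74.9 and 35.3 TPM of the sums in controls 1, 3 and 4. The separation from those controls therefore largely restates the fall of Ighm, and no sum without it was taken. The B cell receptor chain Cd79a had 19.97 TPM in control 2 and at most 0.489 TPM in the other 7 libraries, and 18 of 20 B and plasma cell markers did not pass the filter. Gzma, a cytotoxic protease and the only T and NK cell marker of 19 to pass it, had 43.8 TPM in control 2 and at most 1.99 TPM elsewhere.

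All 26 interferon response genes that passed the filter had a log2 fold change below 0, with a median 1.12 below that of all genes. Without control 2 the median was 0.34 below, so most of the difference came with that library. The list summed to 1431 TPM in control 2, to 108 to 157 TPM in the other 3 controls and to 104 to 113 TPM in melanoma. Ifit3, an antiviral effector, had 75.7 TPM in control 2 and 1.17 to 4.05 TPM in the other 7. Gbp3, a guanylate-binding protein, was lower in melanoma even against the other controls (3.33, 21.8, 3.20 and 5.83 TPM in controls, 0.847, 1.5, 1.65 and 2.02 TPM in melanoma, adjusted p = 0.1 with control 2 and 0.0512 without). Of 21 MHC class I genes, 0 were called with all libraries and 6 lay wholly below the controls. Psmb9 and Psme1, parts of the immunoproteasome and its activator, were called lower without control 2. The shares of all genes kept were 2.85% wholly below the controls and 1.18% called lower without control 2. Psme1 had 27.1, 42.4, 23.8 and 29.5 TPM in controls and 18, 11.5, 19.9 and 18.9 TPM in melanoma (adjusted p = 0.0642 and 0.0497).

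**Figure D3:**
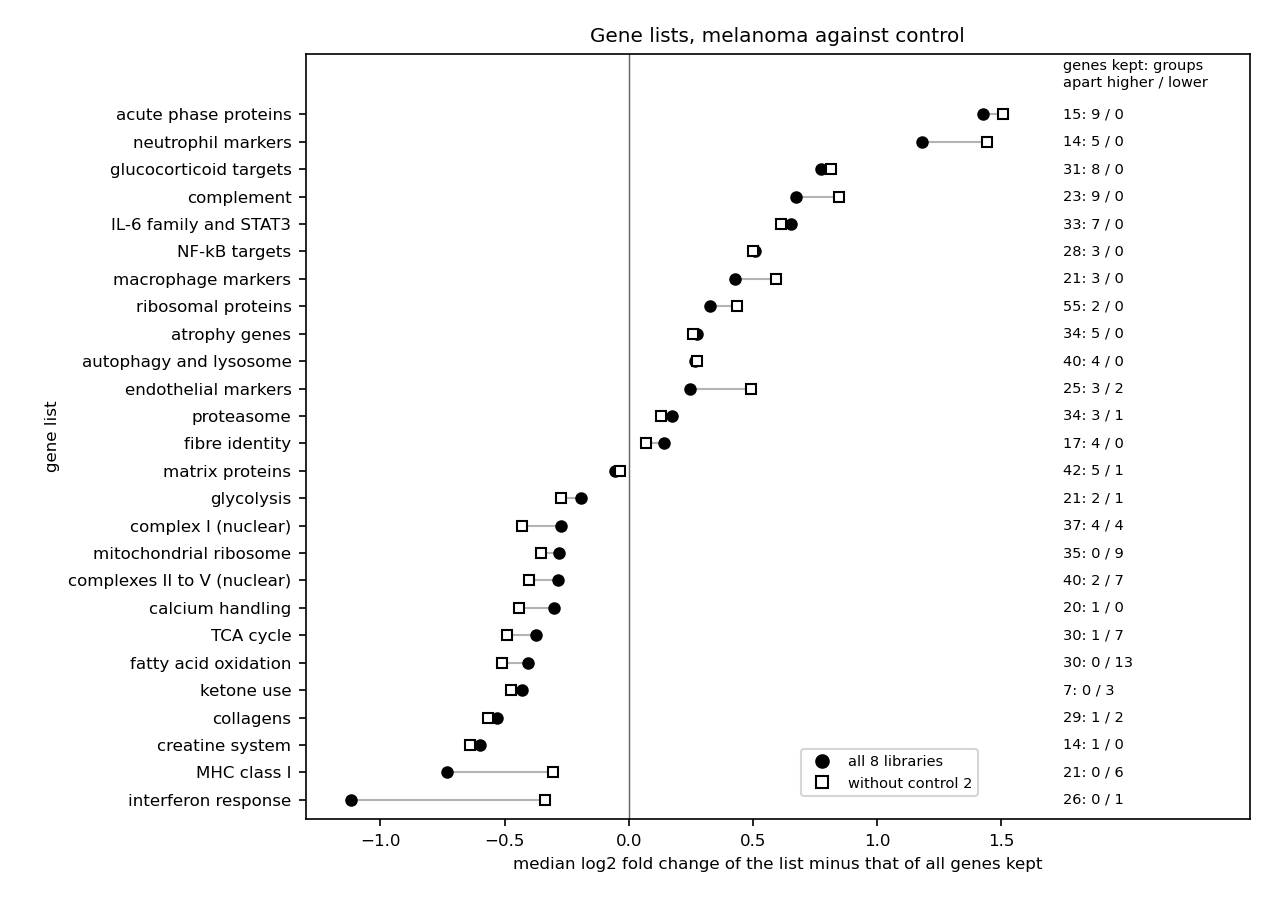
Median log2 fold change of 26 gene lists minus the median of all genes kept, with all 8 libraries (filled circles) and without control 2 (open squares), and beside each list the genes kept and how many lay wholly above or below the controls. Acute phase proteins stand at the top at 1.43 and interferon response genes at the bottom at -1.12, the latter moving to -0.34 without control 2.

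Fabp3, Oxct1 and Slc25a20, which serve the use of fat and ketone bodies, fell. Fabp3, the fatty acid carrier of muscle cytoplasm (chr4:130308595-130315463, plus strand), had 1363, 790, 1015 and 946 TPM in controls and 366, 386, 414 and 431 TPM in melanoma. The groups were far apart and the melanoma libraries close together (-1.34 ± 0.21, adjusted p = 0.0134). Oxct1, the enzyme that activates ketone bodies for oxidation (chr15:4026383-4155344, plus strand), had 233, 191, 234 and 185 TPM in controls and 88.5, 58.6, 99.6 and 115 TPM in melanoma (-1.25 ± 0.19, adjusted p = 0.0123). It was the only called gene of 7 for ketone use. Slc25a20, the carrier that brings acylcarnitine into mitochondria, had 70.4, 55.8, 61.6 and 65.4 TPM in controls and 42.1, 37.4, 41.9 and 41.2 TPM in melanoma, a smaller but clean separation (-0.62 ± 0.13, adjusted p = 0.0437). Its call was less firm, made in 7 of the 20 alternative settings, against 20 for Fabp3 and 19 for Oxct1.

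Of 30 genes of fatty acid oxidation, 1 was called lower and 0 higher, but 13 lay wholly below the controls and 0 above, and the median was 0.41 below that of all genes. Without control 2, 6 were called lower: Slc25a20, Acads, Hadh, Hadha, Eci1 and Acaa2. Among all genes kept, 2.85% lay wholly below the controls, and 1.18% were called lower without control 2. Acaa2, the last enzyme of mitochondrial beta-oxidation, had 255, 219, 248 and 247 TPM in controls and 145, 64.9, 162 and 162 TPM in melanoma, with melanoma 2 the lowest (adjusted p = 0.0682). Hadha, a subunit of the trifunctional protein, had 119 to 135 TPM against 79.0 to 97.6 TPM, and Eci1, an enoyl-CoA isomerase, 165 to 204 against 77.4 to 140 TPM (adjusted p = 0.0642 and 0.0647). Acads and Hadh, which act on short chains, had 75.1 to 88.5 against 23 to 60.5 TPM and 66.5 to 89.6 against 44.1 to 69.6 TPM (adjusted p = 0.069 and 0.125). Fatty acid uptake genes were mixed. Of 16 of them, Fabp3 alone was called, and the transporter Cd36 had 166 to 373 TPM in controls and 250 to 352 TPM in melanoma (adjusted p = 0.344). The lipoprotein receptor Vldlr had 59.3 to 89.9 TPM in controls and 86.2 to 125 TPM in melanoma (adjusted p = 0.12), and both were called higher without control 2.

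Respiratory chain genes leaned lower by small amounts. Of 37 nuclear genes of complex I, 30 had a log2 fold change below 0, and of 40 nuclear genes of complexes II to V, 34 did, with medians 0.27 and 0.28 below that of all genes. None was called. In complex I, 4 genes lay wholly below the controls and 4 wholly above, and in complexes II to V 7 lay below and 2 above. The shares among all genes kept were 2.85% below and 5.36% above. Ndufs8, an iron-sulphur subunit of complex I, had 306, 241, 300 and 307 TPM in controls and 217, 159, 234 and 195 TPM in melanoma (adjusted p = 0.0864, and 0.0292 without control 2). Cycs, the electron carrier cytochrome c, had 111 to 178 against 83.5 to 124 TPM. In the tricarboxylic acid cycle list, 0 of 30 were called, 7 lay wholly below the controls and 1 wholly above. Mdh1, a malate dehydrogenase, had 693, 508, 762 and 656 TPM in controls and 392, 262, 448 and 404 TPM in melanoma (adjusted p = 0.0786). Of 35 mitochondrial ribosome genes, 9 lay wholly below the controls and 0 above. These lists moved with the mitochondrially encoded genes, all 13 of which had a log2 fold change below 0 (-0.27 to -0.03), and their part in each other's values was not tested.

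Other called falls were of genes with differing roles, and of 35 antioxidant genes 1, Msrb2, was called lower and 0 higher. Fndc5, the precursor of irisin, had 78.8, 57.1, 83.8 and 56.6 TPM in controls and 28.3, 17.5, 34.7 and 45.5 TPM in melanoma (-1.16 ± 0.25, adjusted p = 0.0437). Msrb2, a mitochondrial methionine sulphoxide reductase, had 19.4 to 25.6 against 10.2 to 16.1 TPM (-0.78 ± 0.16, adjusted p = 0.0398). Ephx2, an epoxide hydrolase, had 38.6, 46.9, 38.3 and 38.9 TPM against 22.3, 18.4, 23.7 and 32.0 TPM (-0.75 ± 0.15, adjusted p = 0.0437). Alad, a haem synthesis enzyme, and Slc25a39, a mitochondrial carrier of glutathione, had 46.8 to 73.9 against 34.7 to 39.1 TPM and 28.9 to 40.2 against 18.6 to 25.3 TPM, and Acot7, an acyl-CoA thioesterase, 11.2 to 15.3 against 6.46 to 9.49 TPM. Rmdn1 and Wdyhv1, an N-terminal glutamine amidase, had 27.1 to 46.6 against 14.8 to 22.2 TPM and 9.89 to 14.6 against 3.59 to 6.67 TPM. Cyfip2, a regulator of actin assembly, had 16.9, 4.23, 12.5 and 36.9 TPM in controls and 0.904, 1.03, 1.05 and 1.96 TPM in melanoma, low in all 4 melanoma mice and variable in controls (-2.75 ± 0.57, adjusted p = 0.0437). Of the 20 alternative settings, the falls in this paragraph were called in between 6 (Fndc5) and 11 (Wdyhv1).

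Some abundant oxygen and energy genes were lower but too variable to be called. Mb, the oxygen store myoglobin, had 7891, 6692, 10832 and 6726 TPM in controls and 2974, 1176, 5539 and 5240 TPM in melanoma, with no overlap and an adjusted p of 0.105. Ckmt2, the mitochondrial creatine kinase, had 2350, 1484, 3399 and 2073 TPM against 1176, 323, 1590 and 1432 TPM (adjusted p = 0.158). Car3, a carbonic anhydrase of slow muscle and fat, had 3438, 1768, 2528 and 2613 TPM against 1023, 52.2, 1261 and 1722 TPM (adjusted p = 0.202). Melanoma 2 had the lowest value for all 3. The sum of adipocyte markers was also wholly lower, at 2261 to 3783 TPM in controls and 384 to 2157 TPM in melanoma. Of the 11 adipocyte markers that passed the filter, 0 were called and 5 had a log2 fold change above 0. Tfrc, the transferrin receptor through which cells take up iron, had 124, 28.5, 134 and 126 TPM in controls and 10.8, 5.31, 29.2 and 18 TPM in melanoma, where control 2 alone reached the melanoma range (-2.63 ± 0.59, adjusted p = 0.0577, and -3.16 with an adjusted p of 0.00765 without control 2).

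Genes under glucocorticoid control stood higher in melanoma muscle but with wide spread between its libraries. Of 31 kept members, 28 had a log2 fold change above 0, 8 lay wholly above the controls, and the median was 0.77 above that of all genes. With all libraries 0 were called, and without control 2, 8 were called higher and 0 lower. Among all genes kept, 7346 of 11698 had a log2 fold change above 0 and 5.36% lay wholly above the controls. Without control 2, 3.86% of all genes kept were called higher. Mt1, a metal-binding metallothionein, had 415, 407, 176 and 306 TPM in controls and 2280, 4222, 1218 and 891 TPM in melanoma (2.54 ± 0.60, adjusted p = 0.0647). Mt2, its neighbour, had 437, 380, 128 and 264 TPM and 2844, 4146, 1366 and 853 TPM (2.81 ± 0.64, adjusted p = 0.06). Both separated the groups, and melanoma 2 was the highest and melanoma 4 the lowest of the melanoma libraries. Fkbp5, a chaperone of the glucocorticoid receptor, had 6.32, 41.4, 7.91 and 11.2 TPM in controls and 98.2, 218, 37.4 and 38.1 TPM in melanoma, overlapping through control 2 (adjusted p = 0.0738, and 0.0112 without control 2). Hsd11b1, which regenerates active glucocorticoid, had 1.40 to 3.55 against 4.34 to 5.46 TPM (adjusted p = 0.0684), and the transcription factor Zbtb16 had 12 to 34.5 against 32.4 to 148 TPM (adjusted p = 0.085). Dusp1, a phosphatase also induced by handling and stress, overlapped between groups (54.8 to 169 and 120 to 193 TPM).

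The 2 best-known atrophy ligases were not called. Trim63, which encodes MuRF1, had 293, 341, 174 and 184 TPM in controls and 386, 1974, 368 and 401 TPM in melanoma. All melanoma libraries were above all controls, and 3 of the 4 by little, so the log2 fold change of 1.28 ± 0.59 had an adjusted p of 0.262 (0.154 without control 2). Fbxo32, which encodes atrogin-1, had 139, 230, 85.0 and 89.9 TPM and 204, 986, 201 and 180 TPM, overlapping through control 2 (adjusted p = 0.319). Of 34 atrophy genes, 28 had a log2 fold change above 0, 0 were called, and 4 were called higher without control 2, namely Mt1, Mt2, Eif4ebp1 and Ubr2. In that setting 3.86% of all genes kept were called higher. Mt1 and Mt2 were already described with the glucocorticoid genes. Eif4ebp1, the repressor of cap-dependent translation, had 51.3, 152, 34.8 and 43.4 TPM in controls and 270, 950, 201 and 138 TPM in melanoma (adjusted p = 0.0883). Ubr2, a ubiquitin ligase, had 23 to 40.7 against 37.0 to 75.0 TPM. Foxo1, a forkhead factor upstream of the ligases, had 6.93, 8.59, 3.70 and 4.79 TPM and 29.5, 43.9, 8.68 and 11.7 TPM, a separation with an adjusted p of 0.124.

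**Figure D4:**
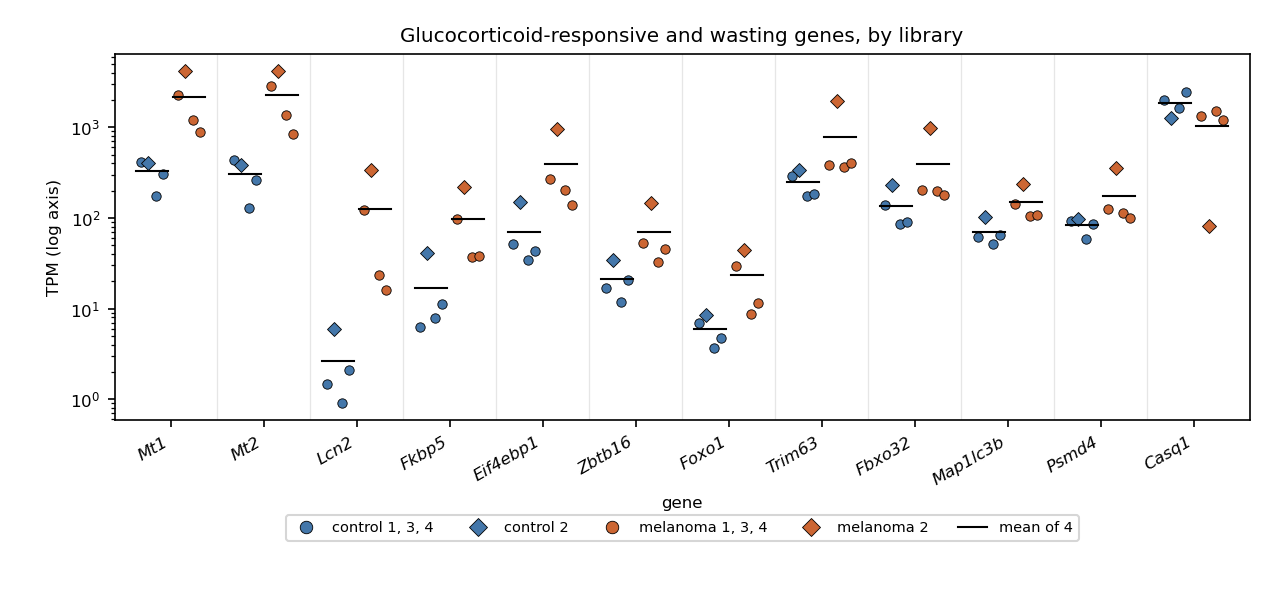
TPM of 12 glucocorticoid-responsive and wasting genes in each library (log axis), controls in blue and melanoma in orange, with diamonds for replicate 2 and a bar at the mean of 4. Melanoma 2 is the highest library for every gene shown except Casq1, for which it is the lowest at 82.3 TPM, and the other melanoma libraries sit closer to the controls.

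Degradation and translation machinery stood slightly higher, with 0 calls. Above 0 were 31 of 34 proteasome genes, 34 of 40 autophagy and lysosome genes and 55 of 55 cytoplasmic ribosomal proteins, with medians 0.17, 0.27 and 0.33 above that of all genes. Over all genes kept, 7346 of 11698 were above 0. Without control 2 and melanoma 2, the proteasome median was 0.05 below that of all genes, so its direction depends on these libraries. Psmd4, a ubiquitin receptor of the proteasome, had 91.9, 97.5, 58.3 and 85.8 TPM in controls and 125, 357, 114 and 99.1 TPM in melanoma (adjusted p = 0.206). Map1lc3b, the autophagosome protein LC3B, had 51.2 to 103 against 105 to 240 TPM (adjusted p = 0.133), and Lamp1, a lysosomal membrane protein, 361 to 449 against 507 to 860 TPM (adjusted p = 0.163). Rpl24 had 335 to 477 against 513 to 933 TPM and Rpl10 25.6 to 48.4 against 62.8 to 184 TPM, with melanoma 2 the highest for both (adjusted p = 0.173 and 0.109). Ribosomal protein genes have many processed copies, so their levels are uncertain.

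Further called genes rose as well. Atp9a, a lipid flippase of endosomes (chr2:168634438-168742409, minus strand), had 12.6, 13.3, 9.18 and 13.4 TPM in controls and 71.7, 37.0, 52.8 and 54.3 TPM in melanoma, a separation among the firmest of all (2.04 ± 0.32, adjusted p = 0.0134). Lpin1, a phosphatidate phosphatase and coactivator of fat metabolism, had 67.0, 84.6, 80.4 and 82.3 TPM and 208, 312, 187 and 127 TPM (1.33 ± 0.22, adjusted p = 0.0166). It was the only called gene of 18 for lipid droplets, beside the droplet coat protein Plin4, which had 98.9 to 216 against 250 to 699 TPM (adjusted p = 0.0879). Map3k6, a stress-activated kinase, had 0.853 to 4.40 against 6.13 to 29.5 TPM (2.13 ± 0.41, adjusted p = 0.0337). Rasd2, a small GTPase, had 7.33, 2.99, 1.87 and 6.62 against 17.7, 23.5, 35.0 and 9.58 TPM (1.98 ± 0.38, adjusted p = 0.0313), and Grrp1 1.77 to 7.55 against 7.20 to 17.9 TPM, overlapping only through control 2. Named after their values were seen, Clip4, a microtubule plus-end protein, had 76.0 to 85.3 TPM in controls and 128 to 151 TPM in melanoma, the narrowest spread of these (0.80 ± 0.15, adjusted p = 0.0313). Asb11, a substrate receptor of ubiquitin ligases, had 67.2, 105, 86.9 and 92.9 against 214, 290, 141 and 155 TPM (1.13 ± 0.23, adjusted p = 0.0371), and Tpbgl 11.3 to 16.0 against 24.0 to 56.0 TPM (1.37 ± 0.24, adjusted p = 0.0202).

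Contractile genes were not called in either direction. None of the 17 fibre identity, 17 fast and 13 slow sarcomere genes passed the test. The slow list was uneven: it summed to 3512 TPM in melanoma 2 and to 327 to 903 TPM in the other libraries. Its member Myh7, below the filter, had 12.4 TPM in melanoma 4 and at most 1.47 TPM elsewhere. Myh4, the fastest myosin heavy chain, had 6480, 7195, 4077 and 10282 TPM in controls and 16287, 7683, 12330 and 8596 TPM in melanoma, with overlap (0.69 ± 0.31, adjusted p = 0.26). Myh2, the myosin of fast oxidative fibres, had 580, 352, 568 and 372 TPM against 167, 235, 79.6 and 393 TPM (adjusted p = 0.207), and Myh1 overlapped between 4100 and 9678 TPM. Des, the intermediate filament desmin, had 1176 to 1988 against 2170 to 3607 TPM, and Ttn, the giant spring protein titin, 170 to 214 against 248 to 310 TPM, both wholly above the controls and not called (adjusted p = 0.0968 and 0.152). Casq1, the calcium store protein, had 82.3 TPM in melanoma 2 and 1205 to 1506 TPM in the other melanoma libraries, against 1264 to 2444 TPM in controls (adjusted p = 0.283). The calcium pump Atp2a1 had 9596 to 15116 against 15348 to 23300 TPM (adjusted p = 0.188). Actc1, the cardiac actin that skeletal muscle makes in development and regeneration, had 741, 223, 161 and 195 TPM in controls and 30.4, 11.5, 147 and 14.1 TPM in melanoma, lower in all 4 (-3.14 ± 0.75, adjusted p = 0.0678, and 0.0417 without control 2). Chrnd, a subunit of the muscle acetylcholine receptor, overlapped (adjusted p = 0.206), and 13 of 17 genes of the developmental and denervation list had a log2 fold change below 0.

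Vascular and peptide hormone genes gave 1 call. Npr3, the clearance receptor of natriuretic peptides, had 9.09, 14.6, 7.42 and 6.08 TPM in controls and 3.62, 1.25, 3.68 and 1.97 TPM in melanoma (-1.51 ± 0.29, adjusted p = 0.0313). Npr1, the signalling receptor of the same peptides, lay the other way (3.63 to 6.95 against 7.30 to 11.8 TPM, adjusted p = 0.0857, and 0.024 without control 2). Ace, the target of lisinopril in the other arm, had 17.9, 31.1, 5.31 and 11 TPM in controls and 50.6, 75.5, 37.1 and 26.0 TPM in melanoma (adjusted p = 0.0799, and 0.0112 without control 2). Among 25 endothelial markers 0 were called. Kdr, the main receptor of vascular endothelial growth factor, had 10.7 to 17.9 against 5.71 to 7.78 TPM, and Apln, the peptide apelin of sprouting vessels, 1.00 to 2.48 against 0.166 to 0.962 TPM (adjusted p = 0.0642 and 0.0526). Plvap, a protein of vessel pores, had 9.02 to 26.7 against 22.4 to 65.4 TPM, and Flt1, a decoy receptor for the same growth factor, 9.25 to 19.3 against 16.6 to 25.2 TPM (adjusted p = 0.0787 and 0.144). Without control 2, 6 endothelial markers were called higher and 2, Kdr and Apln, lower. In that setting 3.86% of all genes kept were called higher and 1.18% lower.

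Of 18 cell cycle genes, Ccnd1 alone was called. Ccnd1, the cyclin that drives entry into the cycle, had 10.4, 3.92, 4.24 and 3.57 TPM in controls and 0.815, 1.07, 0.747 and 0.561 TPM in melanoma, with no overlap (-1.76 ± 0.28, adjusted p = 0.0134). Control 1 was the highest, and the other 3 controls were also above every melanoma library. Cdkn1a, the inhibitor p21, overlapped (34.5 to 80.8 and 49.9 to 180 TPM, adjusted p = 0.316). Of 20 clock genes 0 were called, and collection times are not given in the labels. Dbp, a clock output factor, had 24.5 to 96.4 against 5.74 to 53.9 TPM (adjusted p = 0.258).

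The same contrast was then set beside that in lisinopril-treated mice, which shares no library with it but takes its spread from the same fit of 15 libraries. Of the 54 genes higher here, 53 also had a log2 fold change above 0 there, and all 22 lower genes were below 0. Over all genes kept, 75.4% were above 0 there, 24.6% below, and 79.9% had the same sign in both contrasts. With drug, 171 genes were called (1.46%), 156 higher (1.33%) and 15 lower (0.128%). Called in both in the same direction were 43 genes (37 higher, 6 lower), 56.6% of the 76 called here and 25.1% of the 171 called there. Serpina3n rose by 5.28, C3 by 2.77, C4b by 3.17 and Stat3 by 1.96 on the log2 scale in drug-treated mice, against 4.85, 2.95, 2.92 and 1.34 without drug. Fabp3 had a log2 fold change of -0.82 there (adjusted p = 0.0723) against -1.34 here, and Slc25a20 -0.13 (adjusted p = 0.576) against -0.62. The difference between the 2 effects, tested as an interaction in limma, was called for 0 of 11698 genes (0.00%, 142 at an unadjusted p under 0.05, smallest adjusted p 0.99972), so no gene can be said to respond differently with drug. Before adjustment, 6 of the 76 passed 0.05 for this difference, with Rasd2 (1.29 ± 0.56 on the log2 scale), Ephx2 (-0.57 ± 0.23), Slc25a20 (-0.50 ± 0.19) and Acot7 (-0.49 ± 0.21) among them, each with an adjusted p of 0.99972 in limma.

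**Figure D5:**
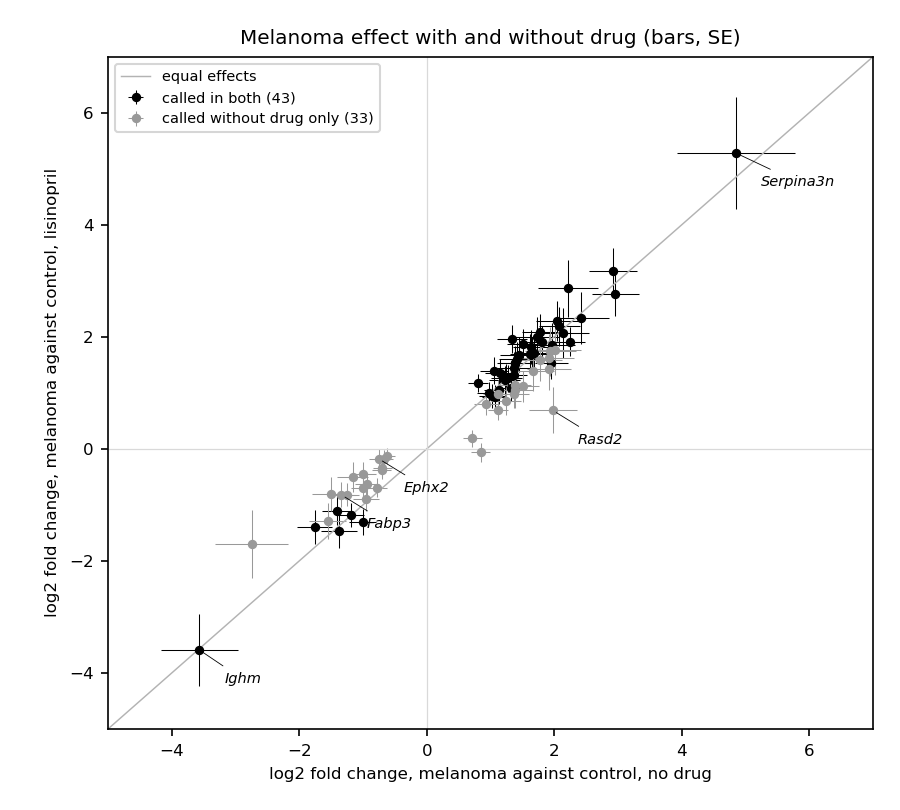
Log2 fold change of melanoma against control for the 76 called genes, without drug (x axis) and with lisinopril (y axis), with standard errors and the line of equal effects. Genes called in both comparisons are black and the others grey, and Serpina3n and Ighm lie at the ends close to the line while Rasd2 and Ephx2 lie nearer to 0 with lisinopril.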

How the data were processed

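Muscle RNA of the 15 mice was extracted with Trizol and sequenced from stranded mRNA libraries on an Illumina instrument, per the labels' protocols. The deposited file holds TPM for 47643 symbols, computed by the authors against mm10 (per the submitters' processing notes). Aligner, counter and annotation: not given in the sources used here. Deposited TPM add up to 1000000 in every library, so depth is unknown and no counting interval is given.

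Genes reaching 1 TPM in 3 or more of the 8 libraries compared were transformed to log2(TPM + 1), with a pseudocount of 1. A gene could pass this filter through the group where it was higher, which favours separation at low levels. The model, fitted in limma (version 3.58.1, R version 4.3.3), had a mean for each of the 4 groups and took its spread from all 15 libraries, leaving 11 residual degrees of freedom. Moderation was by eBayes with trend, tests were two-sided and the Benjamini-Hochberg threshold was 0.05. The 7 libraries of drug-treated mice enter the spread and the interaction only. Errors of fold changes are standard errors. P-values measure the spread between the labelled replicates, whose animals are not identified further.

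Named genes were the called genes with the largest change (up to 20 per direction, mean 5 TPM or more in the higher group), up to 4 members of smallest p from each of 58 gene lists, and a panel of 30 genes. The text names some of these and 42 others chosen after their values were seen. The comparison and the lists were chosen with earlier results of these data known, so counts over lists are descriptions. Replicate numbers in the labels were not treated as pairs. Gene positions are from GENCODE M21 (96.8% of the symbols kept were found) and promoters from RefSeq. Alternatives covered the pseudocount, filter, scaling, moderation, weights, block and libraries. Figures were made with Python 3.11.15 and matplotlib 3.10.9.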

Additional observations from a re-analysis of the deposited data

Results flagged for a closer look

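Single libraries far from the rest of their group were looked for with Dixon's ratio, the gap to the nearest library divided by the range of the 4, and values above its 95% critical value are given. Chance alone passes this limit in about 1 in 20 groups. Of 304 groups examined, 30 passed it, 11 of them through control 2 and 10 through melanoma 2.

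Both libraries had the lowest mean correlation with their own group, 0.937 for control 2 and 0.936 for melanoma 2. Control 2 was far above the other controls for immune genes: Igkc at 80.1 TPM, Gzma at 43.8 TPM, Psmb9 at 6.66 TPM and Cxcr2 at 2.59 TPM. It was also high for Id1 (52.6 TPM) and Ephx2 (46.9 TPM), and low for Tfrc (28.5 TPM), Ndufs8 (241 TPM), Hadh (66.5 TPM) and Grb14 (5.69 TPM).

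Melanoma 2 was far above the other melanoma libraries for the atrophy ligases, with Trim63 at 1974 TPM and Fbxo32 at 986 TPM, and for Rpl24 (933 TPM), Rpl10 (184 TPM) and Prex2, an exchange factor of small GTPases (9.27 TPM). It was far below them for Casq1 (82.3 TPM), Car3 (52.2 TPM), Acaa2 (64.9 TPM) and Cycs (83.5 TPM).

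The remaining values lay in other libraries. Control 1 was high for Ccnd1 (10.4 TPM), Prnd (6.08 TPM) and Col1a1 (194 TPM). Control 3 was low for Atp9a (9.18 TPM) and high for the share of TPM from the mitochondrial genome (52.8%). Control 4 was low for Ighm (35.3 TPM), melanoma 4 for Cd163 (4.60 TPM) and Pde9a (2.44 TPM), and melanoma 1 for S100a9 (45.4 TPM).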

How the results depend on the processing

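The calls rest on few libraries and on the estimate of spread. Against 76 calls, 41 were made with no filter, 31 with a mean of at least 5 TPM, 155 after median-ratio rescaling, 378 after quantile normalization, 138 without the mitochondrial genome, 1700 with sample quality weights, 7 with only the 8 libraries, 128 with only these and without control 2, and 258 without control 2 and melanoma 2 together. A pseudocount of 0.1 gave 59 and eBayes without trend 81. Leaving out 1 library gave between 19 and 590 calls: 22, 590, 24 and 22 without controls 1 to 4, and 34, 19, 35 and 67 without melanoma 1 to 4. Of the 149 genes named and fitted, 0 changed sign under any of the 20 settings, and the difference of effects gave 0 calls in each of the 18 settings that held the drug-treated libraries. With the replicate number as a block (replicate block), 121 genes were called, 68 of the 76 among them. Same-numbered libraries were not shown to be pairs: their deviations from the group means correlated at 0.031, 0.186, -0.131 and 0.206, and control 1 correlated best with melanoma 3 (0.26). Of 1179 medians of gene lists under these settings, 38 moved by more than the median standard error of their genes. The mitochondrial share did not exceed the spread in any setting. Without control 2 and melanoma 2 its smallest possible p was 0.1. Depth is unknown, which leaves the precision of genes near 1 TPM open to counting error that could not be measured.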

Other observations

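Called genes at a few TPM, named after their values were seen, added channel, signalling and hormone-metabolism genes to those that rose. Scn3b and Scn7a, subunits of the sodium channel family, had 0.695 to 1.36 against 3.47 to 7.26 TPM and 1.11 to 3.15 against 4.42 to 6.24 TPM (adjusted p = 0.0166 and 0.0437, limma). Lnx1, a ubiquitin ligase, had 1.03 to 2.61 against 4.58 to 8.17 TPM (log2 fold change 1.37 ± 0.20, adjusted p = 0.0114), and Cpne8, a calcium-dependent membrane-binding protein, 1.21 to 3.00 against 3.96 to 8.06 TPM. Pde9a, which degrades cyclic GMP, had 0.423 to 2.15 against 2.44 to 4.42 TPM, and Cyp1b1, a cytochrome of xenobiotic and steroid metabolism, 0.12 to 0.926 against 1.38 to 2.81 TPM. Fetub, a secreted protease inhibitor, had 0.057 to 0.278 against 1.37 to 3.61 TPM, and Tpsab1, a tryptase of mast cells, 0.365 to 1.17 against 2.39 to 6.10 TPM. Among called falls, Prnd, a relative of the prion protein, had 6.08, 1.32, 1.14 and 1.2 TPM in controls and 0, 0, 0.0139 and 0.0253 TPM in melanoma. Rsph1, a protein of ciliary spokes, had 1.30 to 4.96 against 0.245 to 0.727 TPM, and Unc5b, a netrin receptor of vessels and nerves, 1.63 to 4.48 against 0.698 to 0.892 TPM. Each of these genes separated all 4 melanoma from all 4 control libraries, and the counting error at such levels is unknown. Fetub and Cyp1b1 stayed under 1 TPM in every control, and Prnd, Rsph1 and Unc5b in every melanoma library. They passed the filter only through the group where they were higher, which favours such a separation.

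Insulin and growth factor signalling gave 0 calls in 27 genes, with values on both sides. Igf1r, the receptor of insulin-like growth factor 1, had 3.38, 6.53, 2.19 and 2.39 TPM in controls and 5.84, 17.1, 7.49 and 5.68 TPM in melanoma (adjusted p = 0.129), and Grb14, an adaptor that inhibits the insulin receptor, 13.9, 5.69, 14.9 and 13.1 against 3.88, 1.38, 5.75 and 6.38 TPM (adjusted p = 0.0946). Both overlapped through control 2, and without it both were called, Igf1r higher and Grb14 lower. Of 30 genes of myostatin, activin and bone morphogenetic protein signalling 0 were called. Without control 2, 4 of them were called higher, beside 3.86% of all genes kept. Among the 4 were Tgfbr2 (9.11 to 25.2 against 23.3 to 38.6 TPM) and Id1 (28.1 to 52.6 against 43.6 to 69.9 TPM). Aldoa, the aldolase of muscle glycolysis, had 5360 to 7683 against 8270 to 11295 TPM, wholly above the controls, with an adjusted p of 0.0965. Tagln, a smooth muscle protein of vessel walls, also separated the groups (16.5 to 20.9 against 32.4 to 47.5 TPM, adjusted p = 0.0602), as did Gpx3, a secreted glutathione peroxidase (60.5 to 234 against 296 to 564 TPM, adjusted p = 0.114). Tnc, the matrix protein tenascin-C, had 0.903 to 7.28 against 0.0489 to 0.831 TPM, below the controls in every melanoma library (adjusted p = 0.115), while Adamts4, a protease of matrix proteoglycans, had 0.333 to 3.83 against 4.09 to 23.3 TPM (adjusted p = 0.109).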
